A study of Mus musculus with 2 samples.

Results

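The genes described here encode receptors for growth factors that drive blood cell lineages: Csf1r, Csf3r, Flt3 and Epor, the receptors of M-CSF, G-CSF, FLT3 ligand and erythropoietin. They were chosen by function and matched by exact symbol, and all 4 were found among the 23988 genes of the deposited table. The samples were 2 RNA-seq libraries of 1 group, replicate 1 and replicate 2, of untransformed myeloid progenitors. These were C57BL/6 mouse bone marrow cells, depleted of lineage-bearing cells and kept for 7 days on 3 cytokines (interleukin 3, stem cell factor and interleukin 6), with no other treatment. None of the 4 ligands is among the cytokines named for the culture. Whether separate animals or cultures gave the libraries is not stated, so the spread between them may be technical. Levels are RPKM, that is, reads scaled to the length of the gene and the size of the library, so that genes can be set side by side.

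CSF1R and FLT3 are receptor tyrosine kinases that pair when their ligand binds and then phosphorylate themselves and their adaptors. The receptors of G-CSF and erythropoietin belong to the class I cytokine receptors, which have no kinase of their own and signal through bound JAK kinases and STAT factors. CSF1R marks monocytes and macrophages, the G-CSF receptor granulocyte precursors and neutrophils, FLT3 multipotent and lymphoid progenitors and dendritic cells, and EPOR erythroid progenitors. The comparison therefore asks which of these lineage receptors were expressed in cells that were kept on other cytokines.

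The sequence just upstream of the start site is shown for the 3 receptor genes with an entry, as it was searched for short words that the blood cell factors measured below are known to read. Sequences are from RefSeq on GRCm38.p6, a later build than the mm9 of the deposited values, and run 5′ to 3′ on the strand of the gene. Capitals mark matches, on either strand, to GATAA (GATA factors), GAGGAA (PU.1, an ETS factor), TTGCG (C/EBP factors) or TGTGGT (RUNX factors). The Csf3r stretch, at chr4:126024409-126024549 on the plus strand, stops where a GENCODE transcript begins, and its matches lie further on, in the short windows at chr4:126024563-126024588 and chr4:126024639-126024658. The Flt3 stretch is chr5:147400490-147400739 and the Epor stretch chr9:21963577-21963826, both on the minus strand.
Csf3r upstream: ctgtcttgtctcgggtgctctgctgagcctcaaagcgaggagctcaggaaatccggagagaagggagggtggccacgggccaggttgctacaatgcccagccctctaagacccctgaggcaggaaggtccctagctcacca
Csf3r PU.1 word: tccttcctgaGAGGAAggggctgtct
Csf3r C/EBP word: aggaaggtgtCGCAAttctg
Flt3 upstream: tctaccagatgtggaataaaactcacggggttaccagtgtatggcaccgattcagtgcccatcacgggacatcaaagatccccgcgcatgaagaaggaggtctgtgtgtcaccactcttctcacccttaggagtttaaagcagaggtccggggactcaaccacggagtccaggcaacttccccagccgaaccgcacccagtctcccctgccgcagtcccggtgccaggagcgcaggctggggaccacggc
Epor upstream: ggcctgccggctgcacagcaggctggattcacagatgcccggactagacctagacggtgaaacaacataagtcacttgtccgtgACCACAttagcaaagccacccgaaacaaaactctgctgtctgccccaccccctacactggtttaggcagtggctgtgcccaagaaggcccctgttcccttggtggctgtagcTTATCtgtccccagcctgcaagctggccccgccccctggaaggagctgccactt

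Within the 250 bases upstream of its RefSeq start, Csf3r held 1 GAGGAA word beginning 86 bases before the start and 1 TTGCG word (as CGCAA) beginning 10 bases before it. The Epor stretch held 1 GATAA word (as TTATC), 54 bases before the start, and 1 TGTGGT word (as ACCACA), 166 bases before it. None of the 4 words was found in the Flt3 stretch. Such words are common: of 32851 upstream stretches of that length, 22.6% held GATAA, 23.3% GAGGAA, 14.5% TTGCG and 14% TGTGGT on either strand. The words were chosen after the sequences were seen, and these shares do not correct for that choice. A match is a description of the letters and not evidence of binding.

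Csf3r and Csf1r were expressed well above 1 RPKM in both libraries, and Epor and Flt3 lay near or below it. Csf3r reached 120 RPKM in replicate 1 and 148 RPKM in replicate 2 (mean 134 ± 20.1, SD, n = 2). Csf1r stood at 22 and 71.0 RPKM (46.5 ± 34.6, SD, n = 2). Epor stood at 0.931 and 1.56 RPKM (1.24 ± 0.44, SD, n = 2). Flt3 stood at 0.0904 and 1.11 RPKM (0.601 ± 0.722, SD, n = 2). In the deposited values each receptor was higher in replicate 2 and the order was the same in both libraries. Of the 4, 2 reached 1 RPKM in both, as did 43.5% of all genes in the table and 62.3% of those above 0. Among the 16777 genes above 0 in either library, Csf3r exceeded 95.1% and 96.3% of genes and Csf1r 76.0% and 91.7%. Epor exceeded 36.3% and 38.2% of these genes and Flt3 20.6% and 35.1%.

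**Figure D1:**
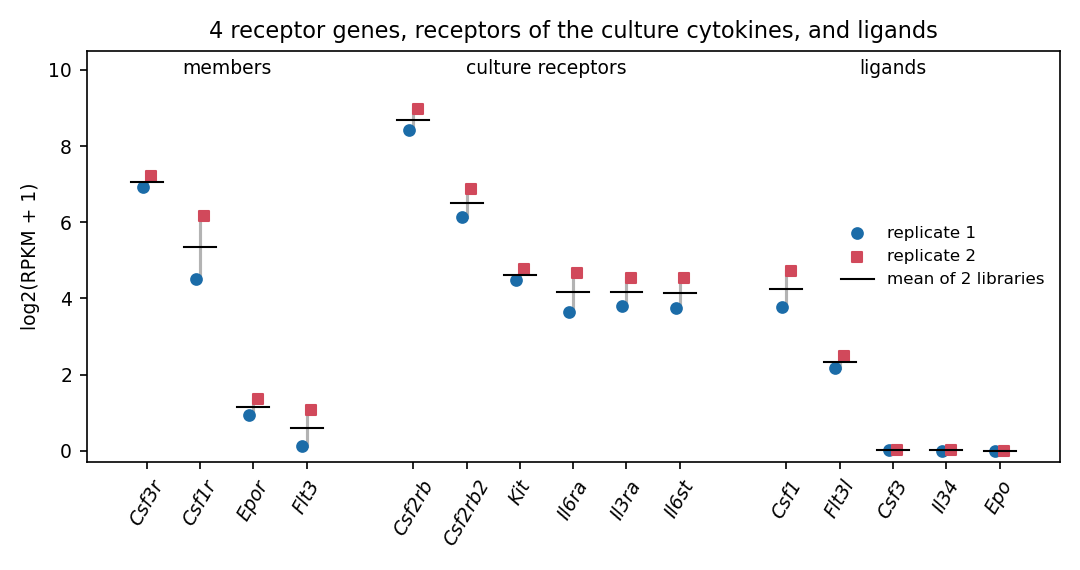
Levels as log2(RPKM + 1) of the 4 receptor genes, the 6 receptor genes of the culture cytokines and the 5 ligand genes. Circles are replicate 1, squares replicate 2, grey lines join them and black bars are their mean. Csf3r sits above every culture receptor except Csf2rb, Epor and Flt3 sit below all 6, and only Csf1 and Flt3l stand clear of 0 among the ligands.

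The steps between RPKM values, each worth a whole number of reads, gave the smallest read numbers that could lie behind each value. Csf1r rested on at least 2907 reads in replicate 1 and 9034 in replicate 2, and Csf3r on at least 4882 and 5813. Epor rested on at least 51 and 82 reads. Flt3 rested on at least 17 and 201 reads, so its level in replicate 1 is the least precise of the 8 values. The gene length these numbers imply is 6280 bp for Flt3, against 3657 bp for its coding transcript in GENCODE vM21 and 6176 bp for all its exons joined. The implied length thus exceeds even the joined exons. Implied lengths depend on an inferred library size, which 25 of 711 genes with 1 GENCODE transcript gave. These lengths, the read numbers fitted with them and the levels recomputed from them are therefore provisional. Divided by the coding transcript alone, Flt3 would stand at 0.155 and 1.91 RPKM. Epor, divided by its longest coding transcript, would stand at 0.967 and 1.62 RPKM. Flt3 would then lie above Epor in replicate 2 and below it in replicate 1. The implied length was 4422 bp for Csf1r and 1829 bp for Epor, near the longest coding transcripts of 4701 and 1761 bp. For Csf3r it was 1363 bp or a multiple of it (2726 or 4089 bp), so its reads may exceed this minimum. None of these lengths equals its coding transcripts, 3160 and 3481 bp, or its exons joined, 3609 bp. The length behind its RPKM is thus not known, and no level at a coding transcript was computed for it. A length shorter than its transcript would make its level and rank too high, and a longer one too low.

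Differences between receptors were taken within each library on the log2(RPKM + 1) scale and are called beyond the spread here if their sign was shared by both libraries and their mean exceeded 2 SD. There is no p-value, because the smallest that exact sign flipping of 2 libraries allows is 0.5. Of the 6 pairs, 4 were beyond the spread, and these were the pairs of 1 high and 1 low receptor. Csf3r exceeded Epor by 5.92 ± 0.07 and Flt3 by 6.47 ± 0.46 (SD, n = 2). Csf1r exceeded Epor by 4.19 ± 0.88 and Flt3 by 4.74 ± 0.49 (SD, n = 2). The neighbours in the order were not separated in either the high or the low pair. Csf3r minus Csf1r was 1.72 ± 0.95 (SD, n = 2), and in RPKM Csf3r was 5.45 times Csf1r in replicate 1 and 2.09 times in replicate 2. Epor minus Flt3 was 0.55 ± 0.39 (SD, n = 2), and in RPKM Epor was 10.3 times Flt3 in replicate 1 and 1.40 times in replicate 2.

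The receptors of the cytokines that were in the culture gave the scale for these levels. All 6 of their genes reached 1 RPKM in both libraries, with list medians of 17.1 and 25.4 RPKM. Their implied lengths, from 1087 bp for Il6ra to 4765 bp for Csf2rb2 at the smallest, were not checked against transcripts. A wrong length would shift these levels and the differences from them. Csf2rb, the beta chain shared by the interleukin 3, interleukin 5 and GM-CSF receptors, stood at 343 and 497 RPKM, and Csf2rb2, the mouse beta chain particular to interleukin 3, at 69.8 and 115. Kit, the receptor tyrosine kinase for stem cell factor, stood at 21.2 and 26.2 RPKM. The ligand-binding chains Il3ra and Il6ra stood at 13.1 and 22.3 and at 11.5 and 24.5 RPKM, and Il6st, which encodes the gp130 chain that carries the interleukin 6 signal, at 12.4 and 22.4. Csf3r lay above the median of these receptors by 2.64 ± 0.19 on the log2(RPKM + 1) scale (SD, n = 2), beyond the spread. Flt3 lay below it, with a difference of -3.83 ± 0.27, as did Epor, with -3.28 ± 0.12 (SD, n = 2), both beyond the spread. Csf1r differed from it by 0.91 ± 0.76 (SD, n = 2), within the spread, and by -0.038 when the mean of the culture receptors replaced their median.

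The 4 genes held different places within their own receptor families. The 36 receptor genes ranked also took in 21 other class I cytokine receptors and the kinases related to CSF1R and FLT3. Among these 36, Csf3r was the third highest by deposited RPKM in both libraries. Only Csf2rb and Csf2ra, the alpha chain of the GM-CSF receptor at 283 and 263 RPKM, stood above it. Csf1r ranked 8 and 6, Epor 25 in both, and Flt3 32 and 28. Of the 21 other class I receptors, 13 reached 1 RPKM in both libraries, beside 43.5% of all genes and 62.3% of those above 0. In each library 14 of the 21 stood above Epor. After Csf2ra the highest was Il4ra, the interleukin 4 receptor chain, at 41.8 and 76.9 RPKM. On the log2(RPKM + 1) scale Il13ra1, a chain of the interleukin 13 receptor, differed most between the libraries in that list. It stood at 5.76 and 24.7 RPKM, a 4.29-fold difference that was larger than that of Csf1r. In RPKM the low genes Lifr (4.89-fold) and Ghr (4.51-fold) differed more. Of the 6 related kinases, Kit, Flt1 and Pdgfrb were detected in both libraries. Csf1r exceeded Kit 1.03-fold and 2.71-fold in deposited RPKM, where the length behind Kit was not checked. Flt1, a VEGF receptor, stood at 3.42 and 4.68 RPKM and Pdgfrb, a PDGF receptor, at 3.18 and 2.94, all above Flt3.

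Among the 4 receptors, Csf1r and Flt3 differed most between the libraries. The detected related kinases differed less in RPKM, at 1.23-fold for Kit, 1.37-fold for Flt1 and 0.924-fold for Pdgfrb, replicate 2 over replicate 1. Csf1r was 3.23-fold higher in RPKM in replicate 2, with a 95% interval of 3.10 to 3.37 from the read numbers. Flt3 was 12.3-fold higher, with an interval of 7.49 to 21.5. Epor was 1.67-fold higher, with an interval of 1.16 to 2.42, and Csf3r 1.24-fold higher, with an interval of 1.19 to 1.29. These exact binomial intervals cover counting error only, use the smallest read numbers, and do not cover differences between cultures, for which 1 library on each side gives no replicate check. On the log2(RPKM + 1) scale the differences were 1.65 for Csf1r, 0.95 for Flt3, 0.40 for Epor and 0.31 for Csf3r, against a median of -0.05 over the 10896 genes whose mean reached 1 RPKM. That scale understates the difference of a low gene such as Flt3.

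Among these 10896 genes, the share 2-fold or more higher in replicate 2 on that scale was 5.3%, while 0.734% were at least 2-fold lower and 44.1% were higher by any amount. Csf1r was past 2-fold, Csf3r and Epor were not, and Flt3 had a mean under 1 RPKM and was not among the genes counted. Large ratios were more frequent among low genes. Of 1833 genes above 0 in both libraries with a mean of 0.5 to 2 RPKM, a window chosen after the values were seen, 24.8% were at least 2-fold higher in replicate 2 in RPKM. The share at least 10-fold higher, as Flt3 was, was 2.07%. All 6 culture receptors were also higher in replicate 2, from 1.23-fold for Kit to 2.14-fold for Il6ra.

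**Figure D2:**
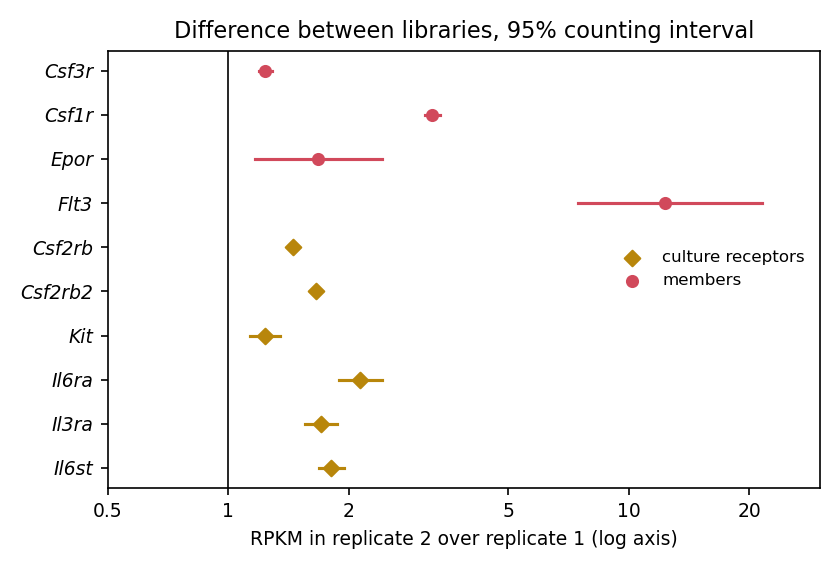
RPKM in replicate 2 divided by replicate 1, on a log axis, for the 4 receptor genes (circles) and the 6 receptor genes of the culture cytokines (diamonds), with 95% intervals from the smallest read numbers as lines. Flt3 at 12.3 and Csf1r at 3.23 lie to the right of every culture receptor, while Csf3r at 1.24 lies beside Kit at 1.23.

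**Figure D3:**
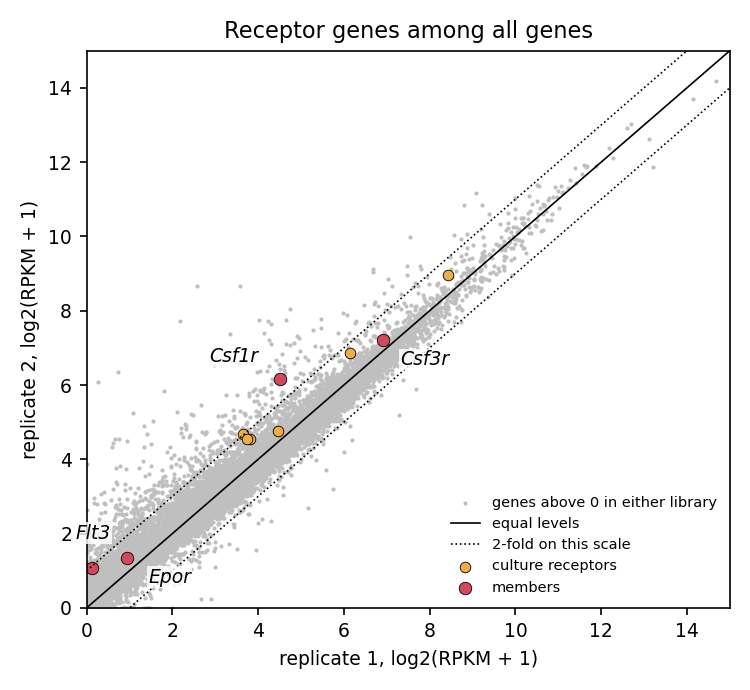
Level in replicate 2 against replicate 1, both as log2(RPKM + 1), for genes above 0 in either library (grey), culture receptors (yellow) and the 4 receptor genes (red). The solid line marks equal levels and the dotted lines 2-fold on this scale. Csf1r lies above the upper dotted line, Flt3 just under it, and Csf3r and Epor near the solid line.

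Of the ligand genes, those for M-CSF and FLT3 ligand were expressed by the cultured cells, and those for G-CSF and erythropoietin were not detected at 1 RPKM. Csf1, which encodes M-CSF, stood at 12.7 and 25.5 RPKM, a 2-fold difference in RPKM (95% counting interval 1.87 to 2.14). Flt3l stood at 3.48 and 4.62 RPKM, above its receptor gene in both libraries. Csf3, which encodes G-CSF, rested on 1 and 2 reads at the smallest (0.00705 and 0.0147 RPKM). Its implied length of 4739 bp was not checked against its transcripts. Il34, the second ligand of CSF1R, was listed at 0 and at 0.0133 RPKM, and Epo at 0 in both libraries. Receptor and ligand levels are thus both above 1 RPKM in each library for Csf1r with Csf1 alone.

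Every signalling gene listed downstream of the 4 receptors reached 1 RPKM in both libraries. These were 12 of 12 for CSF1R, 13 of 13 for the G-CSF receptor, 12 of 12 for FLT3 and 13 of 13 for EPOR. Of all genes 43.5% reached that level, and of those above 0, 62.3%. The 4 pathway lists share members and were chosen with earlier results of these data known. Full detection therefore does not set high receptors apart from low ones. Tyrobp, an adaptor that CSF1R signals with in macrophages, stood at 127 and 154 RPKM, and Grb2, an adaptor of many receptor kinases, at 107 and 132. Adam17, the protease that sheds CSF1R from the surface, stood at 17.3 and 25.3 RPKM. Jak1 stood at 132 and 154 RPKM and Jak2, the kinase bound by EPOR, at 25.1 and 36.5. In the FLT3 list Sla, an adaptor that lowers receptor signalling, stood at 85.6 and 98.8 RPKM, and Socs2, a feedback inhibitor, differed most between libraries at 3.69 and 6.69. Tfrc, the transferrin receptor, and Pim1, a kinase gene induced by STAT5, led the EPOR list at 594 and 441 and at 246 and 483 RPKM. These genes also serve the culture cytokines, so their levels do not show which receptor was signalling.

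Socs3, the feedback inhibitor that binds the G-CSF receptor and the interleukin 6 chain, was the only gene of these pathway lists past 2-fold between libraries. Its level was 15.5 and 57.5 RPKM. Median log2 ratios of the lists, replicate 2 over replicate 1, were 0.29 for CSF1R, 0.22 for the G-CSF receptor, 0.23 for FLT3 and 0.19 for EPOR, beside -0.05 for all genes. In the CSF1R list the widest difference was 0.60 for Ets2, less than the 1.65 of Csf1r itself.

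Of 16 transcription factors known to act at these receptor genes, 13 were detected in both libraries, and Hoxa9, Klf1 and Pax5 were not. Cebpb and Cebpe, C/EBP factors of the myeloid lineage, stood at 139 and 169 and at 156 and 131 RPKM. Cebpa, which acts at Csf3r, stood at 61.3 and 66.3 RPKM. Spi1, which encodes PU.1, the factor of the GAGGAA word and an activator of Csf1r, stood at 77.2 and 70.5 RPKM, and Runx1 at 50.6 and 51.6. None of these 5 factors differed by 2-fold between libraries. Gata1, an erythroid factor known to activate Epor, stood at 42.9 and 51.7 RPKM, while Epor was at 0.931 and 1.56. Klf1, an erythroid factor, stood at 0.748 and 1.47 RPKM. Of the factors tied to Flt3, Meis1 stood at 11.2 and 10.9 RPKM and Myb at 56.9 and 55.3, and Hoxa9 at 0.0342 and 3.13. Pax5, a B cell factor that represses Csf1r and Flt3, was listed at 0 in both. Hoxa9 and Irf8, a monocyte and dendritic cell factor at 7.91 and 29.6 RPKM, were the 2 genes of the list at least 2-fold higher in replicate 2, and none was 2-fold lower. Among all genes whose mean reached 1 RPKM, 5.3% were at least 2-fold higher and 0.734% at least 2-fold lower.

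Levels of Csf3r and Csf1r stood beside high levels of the genes of their lineages. All 17 neutrophil genes found in the table were detected, led by S100a9 at 26131 and 18619 RPKM and S100a8 at 17987 and 13323. Csf3r lay below 12 of these 17 in replicate 1 and 13 in replicate 2. Of the list, 10 genes were higher in replicate 2, among them Camp, Mmp8, Mmp9, Fpr1 and Retnlg by at least 2-fold. The other 7, Elane, Mpo, Prtn3, Ctsg, S100a8, S100a9 and Cebpe, were lower in replicate 2, none of them by 2-fold, and the list summed to 58477 and 48614 RPKM. Retnlg differed most, at 16.6 and 169 RPKM, and the list median of the log2 ratio was 0.31, equal at 2 digits to that of Csf3r. Of all genes whose mean reached 1 RPKM, 44.1% were higher in replicate 2 and 5.3% at least 2-fold higher.

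Of the 22 monocyte and macrophage genes, 17 were detected in both libraries, and C1qa, Cx3cr1, Ly86, Timd4 and Vsig4 were not. Lyz2 (lysozyme) stood at 442 and 1853 RPKM and Ctss (cathepsin S) at 177 and 593, and 9 genes of the list stood above Csf1r in replicate 1 and 8 in replicate 2. All 19 list genes whose mean reached 1 RPKM were higher in replicate 2, beside 44.1% of all genes at that mean. Of the 19, 13 were past 2-fold, beside 5.3% of all genes at that mean. The list median log2 ratio was 1.73, beside the 1.65 of Csf1r. The widest log2 ratio was that of F13a1 (a subunit of coagulation factor XIII), at 25.9 and 262 RPKM. In RPKM the low gene Ly86 differed more, 23.6-fold. The list summed to 1073 and 3781 RPKM in the 2 libraries, and Timd4 was at 0 in replicate 1 and Vsig4 in replicate 2. Mast cell and basophil genes moved in the same direction, 12 of 12 higher with a median log2 ratio of 1.07 and sums of 1439 and 3173 RPKM, with no gene of the list at 0 in both. By mean level Mcpt8 and Cpa3 were the highest of that list, at 668 and 1567 and at 221 and 556 RPKM, and Mcpt4 differed most, from 0.195 to 67.0. In bulk RNA, more cells of a type and more RNA per cell cannot be told apart, and the part of either cell type in the Csf1r difference was not tested.

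Epor stood beside low levels of most erythroid genes, while the lists of cells that bear FLT3 were mixed. Of 19 erythroid genes found, Gata1, Tfrc, Car2 and Aqp1 were detected in both libraries, and the same 4 were the genes above Epor. Tfrc and Gata1, which are also used outside the erythroid lineage, were the highest, and Aqp1 differed most, at 1.17 and 5.13 RPKM. Defining genes were low: Alas2 (erythroid heme synthesis) stood at 0.0858 and 0.134 RPKM, and Slc4a1 (band 3) at 0 and 0.102. The 4 globin genes Hba-a1, Hba-a2, Hbb-b1 and Hbb-b2 were listed at 0, where reads shared between near-identical copies may have been dropped. The list median was 0.116 and 0.430 RPKM.

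Of 10 genes of lymphoid progenitors, Il7r, at 3.90 and 9.36 RPKM, and Satb1, at 10.6 and 18.6, were detected, while Rag1, Rag2, Ebf1 and Pax5 were listed at 0 in both libraries. Dntt, the terminal transferase of early lymphoid cells, was listed at 0 and at 0.411 RPKM. Of 13 genes of dendritic cells, 8 were detected, beside 43.5% of all genes and 62.3% of those above 0. All 8 were higher in replicate 2, beside 44.1% of all genes whose mean reached 1 RPKM. The median log2 ratio of the 8 was 1.02. Over all 13 genes, with no minimum level, the median was 0.36, against 0.95 for Flt3, whose own mean was under that minimum. The ligand gene Flt3l is 1 of the 8. By mean level the highest were Clec10a, a lectin that macrophages also express, at 18.2 and 148 RPKM, and Bst2, at 23.0 and 26.3. The 5 that were not detected were Zbtb46, Xcr1, Clec9a, Siglech and Cd209a, which mark dendritic cells or subsets of them, and the highest of these, Clec9a, stood at 0.293 and 0.686 RPKM. Summed levels were 64.2 and 237 RPKM for the dendritic list and 14.8 and 28.7 for the lymphoid list, and their part in the Flt3 difference was not tested.

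**Figure D4:**
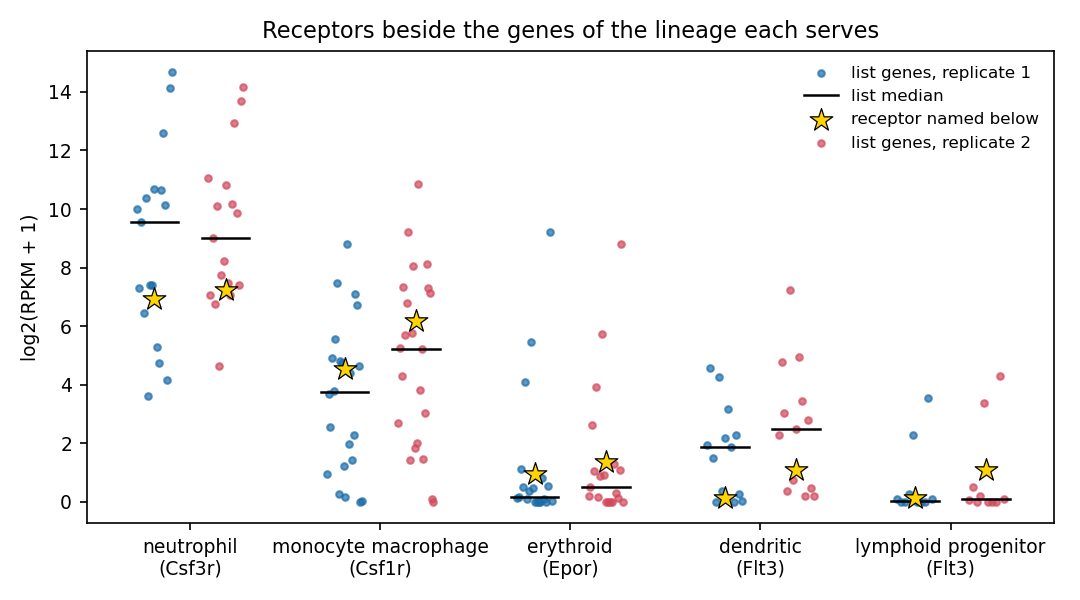
Levels as log2(RPKM + 1) of the genes of 5 lineage lists (blue, replicate 1; red, replicate 2), with the list median as a black bar and the receptor of each lineage as a star. Csf3r lies below the median of the neutrophil genes, Csf1r above that of the monocyte and macrophage genes, and Epor above that of the mostly undetected erythroid genes. Flt3 lies below the dendritic median and at or above the lymphoid progenitor median.

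Genes of stem and early progenitor cells, to which FLT3 also belongs, were a mixed group. Of 14 genes 11 were detected, led by Lmo2 at 110 and 73.8 RPKM and Myb, and Slamf1, Mecom and Cd27 were not. Cd34 stood at 14.5 and 19.5 RPKM. The median log2 ratio of the list was -0.03, with 5 of 11 genes higher in replicate 2, beside 44.1% of all genes whose mean reached 1 RPKM. On that log2 scale Cd48 differed most, at 15.3 and 44.2 RPKM. Cd27, a surface protein of multipotent and lymphoid progenitors, had levels near those of Flt3, at 0.148 and 1.34 RPKM. Of 14 genes of B, T and NK cells, stroma and endothelium, Pecam1 alone was detected, at 194 and 154 RPKM, and this gene is also expressed by myeloid cells. Next by mean level was Col1a1, a collagen gene of stroma, at 0.662 and 0.395 RPKM.

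For each receptor the 3 genes with the nearest levels were found by Euclidean distance in log2(RPKM + 1) over the 2 libraries, which is a match of level and says nothing of shared function. The nearest to Csf1r were Lif (23.0 and 72.5 RPKM), Pfkl (21.1 and 67.4) and Axl (20.8 and 75.8), at distances of 0.072, 0.094 and 0.119. Nearest to Csf3r were Cd164, Cmtm6 and Myh9, at 0.0085 to 0.035. Nearest to Flt3 were Mcam, Trp53i11 and 2510009E07Rik, at 0.024 to 0.047, and nearest to Epor were S1pr3, LOC102634101 and Slc25a43, at 0.013 to 0.024. Within a distance of 0.1 there were 2 genes around Csf1r, 8 around Csf3r, 10 around Flt3 and 31 around Epor, so the level of Csf1r had the fewest neighbours.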

How the data were processed

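Gene expression was measured by RNA-seq in 2 libraries of untransformed myeloid progenitors. The authors deposited RPKM values, 1 column per library. Per the submitters' processing notes, Trimmomatic 0.32, TopHat2, HTSeq, edgeR and build mm9 were used. Tool settings, annotation and strandedness were not given in the sources used here. RPKM values of a library fall where a few genes take many reads. Of 24015 rows, 27 with date-like names (0.114% and 0.116% of the summed RPKM) were left out. Columns were matched to the samples by title.

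Effective library sizes, 29941063 and 28793666 reads, were read from the steps of the values: 462 genes shared the size ratio of 0.962, and 25 of 711 genes with 1 GENCODE vM21 transcript gave the same size, against 7 for the next most common. They may include a normalisation factor, and read numbers are the smallest that fit. On simulated low genes, the recovery of the size ratio and of the smallest read pairs was tested. The sizes themselves and the implied gene lengths were not tested.

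The pseudocount was 1 and detected means at least 1 RPKM in both libraries. For every count of detected list genes, the share to set beside it is 43.5% of all genes and 62.3% of those above 0. For counts of genes higher in replicate 2 it is 44.1% of genes whose mean reached 1 RPKM. For counts at least 2-fold higher it is 5.3% of these genes. A call beyond the spread needed the same sign in both libraries and a mean over 2 SD. The members and the 18 gene lists were chosen with earlier results of these data known. Of 201 list genes, 199 were found, 1 of them (Adgre1, as Emr1) by an older symbol. Named genes were the 4 receptors, every culture receptor and ligand, the 2 highest and the most different gene of each other list, any gene behind a count of 5 or fewer, and the 3 nearest genes of each receptor. The most different gene was the one with the largest log2 ratio in size among genes whose mean reached 1 RPKM. Other genes were named for their known role after their values were seen. Motif words were chosen after the sequences were seen. Alternatives were other pseudocounts, scalings and minimum levels, a mean for the median, each library alone and, added after seeing the data, another gene length. Python 3.11.15, pandas 2.3.3 and scipy 1.17.1 were used.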

Additional observations from a re-analysis of the deposited data

How the results depend on the processing

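The 4 receptor pairs beyond the spread and the 3 such differences from the culture receptors stayed so with pseudocounts of 0.1 and 5, and those 3 also with a mean for the median. Csf1r against the culture receptors, within the spread, changed sign with the mean, to -0.038. The log2 ratio of Flt3 passed 1 with a pseudocount of 0.1, at 2.67, and with the median ratio of genes set to 1, at 1.01. In replicate 2 alone all 4 receptors and 7 erythroid genes reached 1 RPKM. In replicate 1 alone the receptors at 1 RPKM were 2. With the length of the longest coding transcript, Flt3 lay above Epor in replicate 2, at 1.91 and 1.62 RPKM. That alternative rests on the provisional implied lengths. Csf3r was left out of that alternative. At a minimum of 5 RPKM, 8 class I receptors, 1 related kinase, 1 ligand, 3 dendritic, 1 lymphoid and 7 stem cell genes were detected. The median log2 ratio of the stem cell list was 0.13 with no minimum level. These changes follow from the settings themselves. The precision of Flt3 in replicate 1 is limited by its reads, at least 17. No paired analysis was possible because there is 1 group.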
